A study of Homo sapiens with 16 samples.

Results

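The comparison described here set SAOS cells transfected with RB and SMYD2 together against SAOS cells that were not transfected. It used 8 of the 16 arrays of the series, the 4 arrays labelled with both proteins and the 4 labelled control. The arrays were chosen by their titles alone. SAOS is an established human osteosarcoma line without functional RB. The study asked what overexpressed SMYD2 does to RB that is put back into these cells. The RB plus SMYD2 cells had received human RB1 and mouse SMYD2 by transient transfection, so both transfected and untransfected cells may be present on each array. Control cells had received no DNA, and no arm with an empty vector is among the groups. The other arms, RB alone and SMYD2 alone, hold 4 arrays each and are used here only beside the results. In each group the arrays carry the replicate numbers 1, 3, 4 and 5, and values below are given in that order. The labels do not say whether the samples of a group were grown as separate cultures. Most p-values below come from a fit that pairs same-numbered arrays. They reflect the spread of the differences between those arrays, part or all of which may be technical.

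RB, the retinoblastoma protein, binds E2F transcription factors and holds back the genes that carry a cell into S phase. With its relatives p107 and p130 and the DREAM and MuvB complexes it also belongs to the system that silences mitotic genes outside G2 and M phase. SMYD2 is a lysine methyltransferase of the SET and MYND domain family, and RB is among its known protein substrates. Osteosarcoma cells such as SAOS keep parts of the osteoblast programme, in which RB is known to act together with the bone regulator RUNX2.

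Transcript levels were read on Affymetrix U133 Plus 2.0 arrays as log2 RMA signals, so a difference of 1 is a doubling of signal. Each of 19775 genes was represented by 1 probe set. Differences are RB plus SMYD2 minus control, with the standard error (SE) of a limma fit over the 8 arrays that keeps the replicate number as a block. A gene was called, and is said to have risen or fallen, at an adjusted p under 0.05 (limma, Benjamini-Hochberg over all 19775 genes). The arrays had medians between 5.59 and 5.64, and arrays of 1 group correlated at 0.991 to 0.998. The difference between the 3′ and 5′ probe sets of ACTB, a sign of RNA quality, was 1.17, 1.22, 0.88 and 0.55 on the RB plus SMYD2 arrays and 2.46, 0.54, 1.02 and 0.65 on the control arrays. Control array 1 stood apart there, and without it 2997 genes were called, against 3213 with all 8 arrays. In cells measured in bulk, fewer cells of a kind and less RNA per cell cannot be told apart.

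RB1, the transfected gene, was read by a pair of probe sets. The brighter one read 7.90, 7.90, 9.25 and 9.62 in RB plus SMYD2 cells, against 6.24, 6.49, 6.27 and 6.93 in control cells. All RB plus SMYD2 arrays lay above all control arrays, and arrays 4 and 5 were the highest. The difference was 2.19 ± 0.21 (SE), a 4.55-fold higher signal (adjusted p = 3.63e-05, limma). An exact permutation test, two-sided and without regard to the replicate number, gave p = 0.0286. No smaller p is possible in that test with groups of 4. The dimmer RB1 probe set read 3.51 ± 0.09 in RB plus SMYD2 cells and 3.49 ± 0.03 in control cells (SD, n = 4 each), and its groups overlapped.

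**Figure D1:**
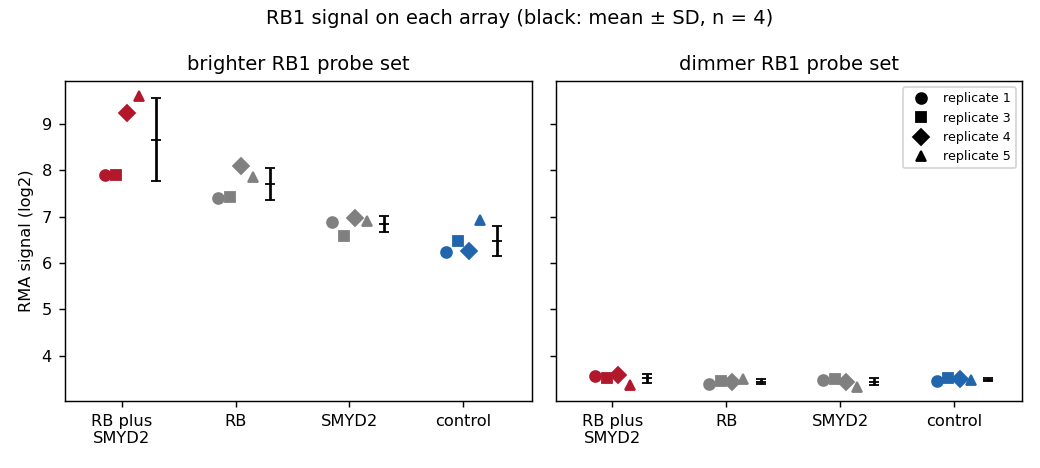
RMA signal (log2) of the brighter and dimmer RB1 probe sets on each array of the groups RB plus SMYD2, RB, SMYD2 and control, with symbols for the replicate number and black marks for the mean ± SD (n = 4). On the brighter probe set the RB plus SMYD2 arrays read 7.90 to 9.62 and the control arrays 6.24 to 6.93, whereas the dimmer set stayed at about 3.5 in every group.

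SMYD2 was not seen to change on the arrays. Its brightest probe set, the one used here, read 10.16, 10.20, 10.18 and 10.18 in RB plus SMYD2 cells, against 10.12, 10.23, 10.14 and 10.17 in control cells. The groups overlapped, and the difference was 0.02 ± 0.06 (SE, adjusted p = 0.913, limma). The other SMYD2 probe sets differed by -0.10 (exact permutation p = 0.286) and -0.21 (exact permutation p = 0.0571). The construct was mouse SMYD2 and the probes were designed for human transcripts, so these probe sets are no check of the transfection. L3MBTL1, a reader of methylated lysine that is known to bind methylated RB, differed by 0.10 ± 0.09 (adjusted p = 0.533, limma).

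The arrays carried the osteoblast markers of the labelled line and little of other cell types. COL1A1 averaged 13.67 in RB plus SMYD2 cells and 13.53 in control cells, and RUNX2 averaged 12.54 and 12.38 in the same order. Neither was called, while the other 5 of the 7 osteoblast lineage markers rose (SPARC, COL1A2, ALPL, IBSP and SP7), and the median of the 7 was 0.39. Of the 7, only SPARC had groups that did not overlap. In pair 1 IBSP read 13.26 in RB plus SMYD2 cells and 13.24 in control cells. In pair 3 ALPL read 12.06 and 12.04 in the same order. ALPL, IBSP and SP7 were not recomputed under other settings. Of 26 markers of blood, endothelium, epithelium, nerve and muscle, and fat, 25 averaged between 3.71 and 6.91 in RB plus SMYD2 cells and between 3.70 and 6.62 in control cells. PTPRC, the leukocyte marker, averaged 3.85 in RB plus SMYD2 cells and 3.83 in control cells. The exception was the epithelial marker EPCAM, at 9.42 in RB plus SMYD2 cells and 9.45 in control cells. Among these 26 markers 1 was called, CSF1R, which rose by 0.39 ± 0.09.

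Transfection with RB and SMYD2 was accompanied by a change in 3213 of 19775 genes, which is 16.2% of those tested. Of these, 1550 rose (7.84%) and 1663 fell (8.41%). The median over all genes was 0.02, and 1% of genes lay below -0.80. Changes of at least 1 on the log2 scale were reached by 40 genes that rose and 95 that fell. The arrays of the groups did not overlap for 2959 genes (15%), with the RB plus SMYD2 arrays above for 1418 (7.17%) and below for 1541 (7.79%). The counts leaned on arrays 4 and 5: without same-numbered pair 4 there were 1901 calls and without pair 5 there were 1744. Without the block there were 1699 calls.

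**Figure D2:**
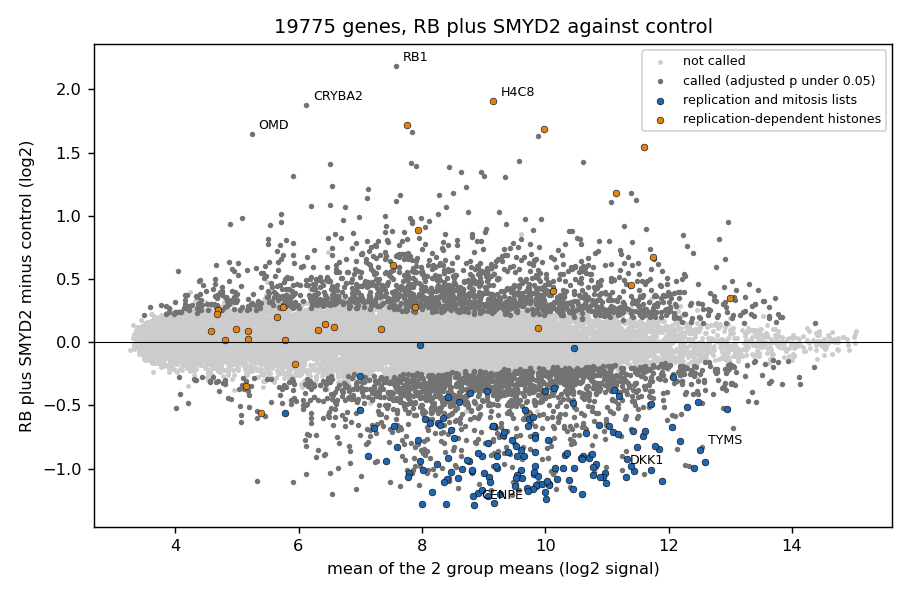
Difference RB plus SMYD2 minus control (log2) against the mean of the group means (log2 signal) for 19775 genes; light grey points were not called and dark grey points were called at an adjusted p under 0.05. Members of 7 replication and mitosis lists (blue) lie almost entirely below 0, down to -1.29 for CENPE, and the replication-dependent histone genes that changed most (orange) lie above, up to 1.91 for H4C8.

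The genes that fell most were nearly all mitotic. CENPE, a kinesin that carries chromosomes to the spindle equator, read 8.25, 8.46, 8.17 and 7.93 in RB plus SMYD2 cells, against 9.13, 9.48, 9.61 and 9.74 in control cells. The arrays did not overlap, and the difference was -1.29 ± 0.13 (SE, adjusted p = 4.37e-05, limma). SKA1, a microtubule-binding protein of the outer kinetochore, read 7.04, 7.68, 7.57 and 7.20 in RB plus SMYD2 cells, against 8.62, 8.52, 8.76 and 8.70 in control cells. RB plus SMYD2 array 1 was the lowest, the groups did not overlap, and the difference was -1.28 ± 0.11 (adjusted p = 2.04e-05, limma). SPC25, a subunit of the NDC80 kinetochore complex, differed by -1.28 ± 0.10, and KIF14, a kinesin of cytokinesis, by -1.27 ± 0.10. Of the 15 largest decreases, 14 belonged to the cell cycle lists used here, and the exception was ARHGAP11A, a GTPase-activating protein, at -1.20 ± 0.13.

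The genes that rose most were of mixed kinds. H4C8, 1 of the genes for histone H4, read 10.35, 9.92, 10.02 and 10.17 in RB plus SMYD2 cells, against 8.58, 8.57, 7.87 and 7.81 in control cells. Every RB plus SMYD2 array was above every control array, by a mean of 1.91 ± 0.13 (SE, adjusted p = 1.04e-05, limma). CRYBA2, a beta crystallin known from the eye lens, read 7.71, 6.58, 7.16 and 6.80 in RB plus SMYD2 cells, against 5.97, 4.70, 5.30 and 4.77 in control cells. Array 1 was highest in both groups, and the difference of 1.88 ± 0.08 had the smallest p of all genes (adjusted p = 1.59e-06, limma). OMD, osteomodulin, a proteoglycan of mineralised bone matrix, read 6.21, 5.33, 6.05 and 6.65 in RB plus SMYD2 cells, against 4.40, 4.39, 4.59 and 4.29 in control cells. It rose by 1.64 ± 0.17, with no overlap of the arrays.

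Several of the other large increases were genes of secreted or surface proteins. SCARA5, a scavenger receptor that takes up ferritin, rose by 1.66 ± 0.21 and ENTPD3, an enzyme that breaks down extracellular nucleotides, by 1.63 ± 0.13. CLU, the chaperone clusterin, rose by 1.43 ± 0.09 and CFD, the complement protease factor D, by 1.42 ± 0.14. TNN, an extracellular matrix tenascin, rose by 1.42 ± 0.08, NPTX2, a secreted pentraxin, by 1.41 ± 0.16, and PTGES, a synthase of prostaglandin E2, by 1.35 ± 0.08. IGDCC4, a membrane protein of the immunoglobulin superfamily, rose by 1.40 ± 0.21. For SCARA5, NPTX2 and IGDCC4 the control arrays were uneven: IGDCC4 read 8.55, 8.41, 8.67 and 8.80 in RB plus SMYD2 cells, against 7.94, 7.54, 6.55 and 6.82 in control cells.

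The promoters of the genes with the largest changes are shown because elements for E2F and for the DREAM and MuvB complexes are known from promoters of this kind. Each runs from 250 bases before to 50 bases after the gene's start, on the gene's strand, from RefSeq (GRCh38.p14). RB1 was left out, because its signal may include the transfected copy. Capitals mark matches, on either strand, to the CHR element (TTTGAA), to the E2F elements TTTCCCGC, TTTCGCGC, TTTGCCGC and TTTGGCGC, and to the CCAAT box (CCAAT). The first 3 sequences are those of CENPE (chr4:103198294-103198593, minus strand), SKA1 (chr18:50374796-50375095, plus strand) and SPC25 (chr2:168890381-168890680, minus strand), the largest decreases with an entry in the table. The next 3 are the largest increases, H4C8 (chr6:26285485-26285784, minus strand), CRYBA2 (chr2:218993373-218993672, minus strand) and H2BC4 (chr6:26123877-26124176, minus strand). CLSPN (chr1:35769929-35770228, minus strand) and CDT1 (chr16:88803539-88803838, plus strand) were added after the counts were seen, as the genes of the replication lists with the largest decreases among those with an E2F match.
CENPE: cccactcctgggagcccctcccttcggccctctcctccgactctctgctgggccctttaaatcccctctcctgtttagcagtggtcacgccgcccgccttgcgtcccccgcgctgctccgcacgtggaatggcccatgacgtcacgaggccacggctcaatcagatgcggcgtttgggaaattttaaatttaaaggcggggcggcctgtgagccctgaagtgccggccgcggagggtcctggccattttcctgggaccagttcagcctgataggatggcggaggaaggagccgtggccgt
SKA1: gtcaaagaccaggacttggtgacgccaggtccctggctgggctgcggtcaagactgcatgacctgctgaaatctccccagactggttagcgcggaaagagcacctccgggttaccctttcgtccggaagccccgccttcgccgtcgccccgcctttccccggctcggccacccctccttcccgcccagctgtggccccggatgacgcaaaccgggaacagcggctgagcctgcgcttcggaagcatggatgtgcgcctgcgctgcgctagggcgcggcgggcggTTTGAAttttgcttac
SPC25: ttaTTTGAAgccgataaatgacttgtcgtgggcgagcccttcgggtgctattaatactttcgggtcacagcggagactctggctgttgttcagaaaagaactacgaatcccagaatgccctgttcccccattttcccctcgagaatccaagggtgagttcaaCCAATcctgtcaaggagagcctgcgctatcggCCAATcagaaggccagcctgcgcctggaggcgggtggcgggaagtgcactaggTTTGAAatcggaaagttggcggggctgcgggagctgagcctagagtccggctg
H4C8: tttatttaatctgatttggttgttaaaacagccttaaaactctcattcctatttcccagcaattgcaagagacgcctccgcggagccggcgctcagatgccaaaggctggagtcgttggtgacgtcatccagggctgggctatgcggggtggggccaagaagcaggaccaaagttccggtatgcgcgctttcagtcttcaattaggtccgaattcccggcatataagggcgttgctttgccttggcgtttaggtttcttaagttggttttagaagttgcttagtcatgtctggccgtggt
CRYBA2: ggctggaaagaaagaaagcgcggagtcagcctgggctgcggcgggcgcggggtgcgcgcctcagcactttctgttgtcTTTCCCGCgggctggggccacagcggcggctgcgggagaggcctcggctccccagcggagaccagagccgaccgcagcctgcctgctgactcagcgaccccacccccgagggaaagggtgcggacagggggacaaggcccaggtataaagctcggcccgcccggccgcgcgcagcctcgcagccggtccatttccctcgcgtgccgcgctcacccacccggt
H2BC4: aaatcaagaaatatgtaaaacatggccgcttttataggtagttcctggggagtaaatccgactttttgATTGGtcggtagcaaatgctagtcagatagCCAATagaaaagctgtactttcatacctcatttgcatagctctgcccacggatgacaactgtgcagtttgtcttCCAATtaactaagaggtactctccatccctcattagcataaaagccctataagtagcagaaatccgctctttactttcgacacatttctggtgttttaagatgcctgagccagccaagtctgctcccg
CLSPN: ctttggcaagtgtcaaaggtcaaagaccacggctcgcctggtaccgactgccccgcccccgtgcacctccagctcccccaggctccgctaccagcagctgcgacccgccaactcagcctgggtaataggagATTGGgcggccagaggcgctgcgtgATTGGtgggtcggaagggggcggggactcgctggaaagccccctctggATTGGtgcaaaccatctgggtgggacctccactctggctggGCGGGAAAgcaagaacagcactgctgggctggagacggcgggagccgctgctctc
CDT1: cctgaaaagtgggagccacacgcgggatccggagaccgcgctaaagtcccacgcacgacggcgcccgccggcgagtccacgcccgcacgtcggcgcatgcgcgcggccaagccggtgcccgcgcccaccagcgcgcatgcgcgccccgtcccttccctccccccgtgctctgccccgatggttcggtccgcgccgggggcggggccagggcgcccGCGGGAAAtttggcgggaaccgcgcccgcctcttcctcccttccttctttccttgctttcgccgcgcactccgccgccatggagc

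SPC25 held 2 CHR elements and 2 CCAAT boxes, SKA1 held 1 CHR element, and CENPE held none of the motifs in this window. CLSPN held 1 E2F match and 3 CCAAT boxes, and CDT1 held 1 E2F match. Among the increases, H4C8 held none, CRYBA2 held 1 E2F match and H2BC4 held 3 CCAAT boxes. The matches are descriptions of the letters, not of binding.

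Over all 27305 promoters of the table, 15.4% held the CHR element, 3.33% an E2F element and 35.7% a CCAAT box. For the 15384 genes tested that had an entry, these shares were 11.9%, 4.36% and 36.1%. The 4 mitosis lists, of which 74 members had an entry, held the CHR element in 59.5% (44 promoters), an E2F element in 9.46% and a CCAAT box in 64.9%. CHR and CCAAT stood together in 39.2% of those promoters, against 4.82% of all genes tested. The 3 replication lists showed another mix among their 50 promoters, with the CHR element in 6%, an E2F element in 40.0% (20 promoters) and a CCAAT box in 56.0%. Of the 1393 promoters of genes called lower, 17.7% held the CHR element and 9.69% an E2F element. Of the 1256 of genes called higher, the shares were 8.68% and 3.98%. The replication-dependent histone list, in which 11 of 30 genes rose, held both elements more often than either set. Among its 29 promoters the CHR element stood in 34.5%, an E2F element in 24.1% and a CCAAT box in 86.2%. Members of the mitosis and replication lists were known cell cycle genes, for which such elements have been described. None of these shares was tested.

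**Figure D3:**
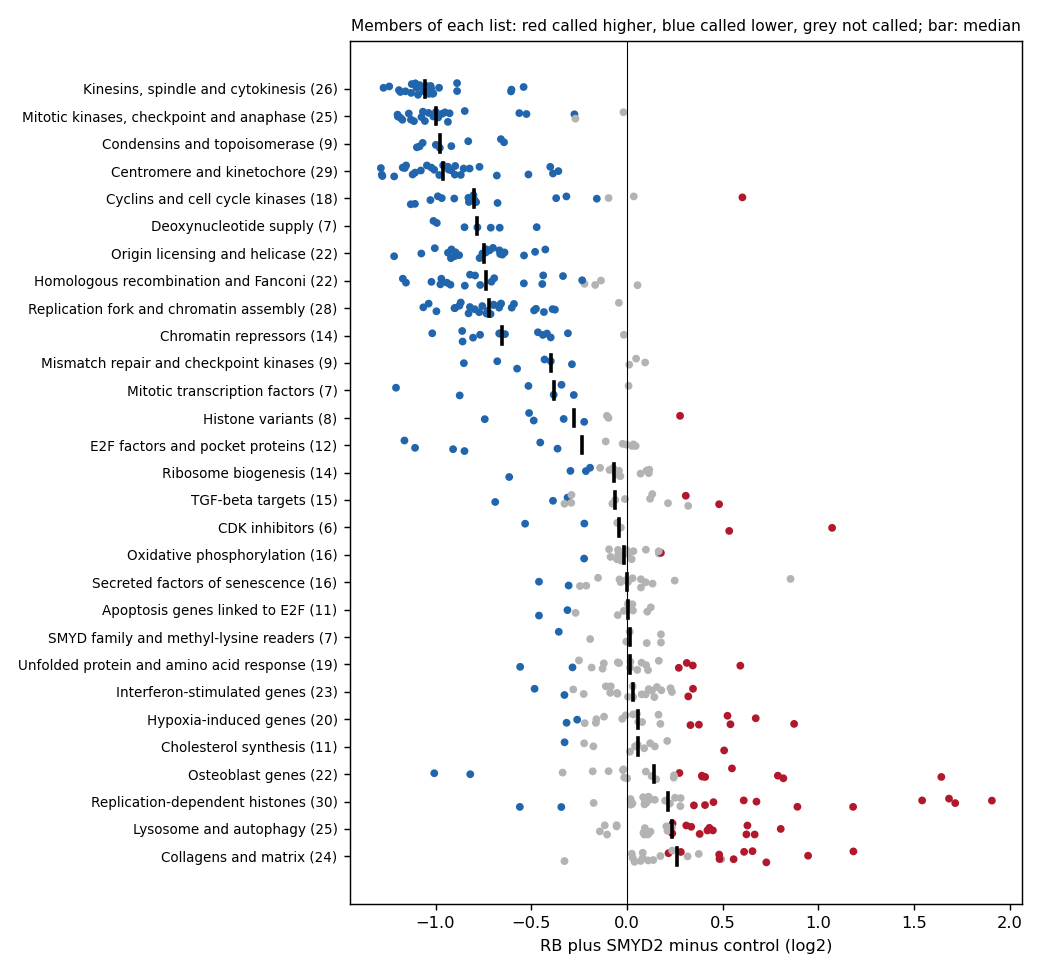
Difference RB plus SMYD2 minus control (log2) of each measured member of 29 gene lists, ordered by median (black bar), with the number of members measured in brackets; red members were called higher, blue lower and grey were not called. The lists of mitosis, replication and repair have medians between -1.06 and -0.38, and collagens and matrix, at 0.26, stand at the other end.

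Of 12 E2F factors and pocket proteins measured, 6 fell and none rose, with a median of -0.24. E2F8, an atypical E2F that represses transcription, read 6.33, 6.67, 6.15 and 6.28 in RB plus SMYD2 cells, against 7.45, 7.27, 7.69 and 7.66 in control cells. The groups did not overlap, and E2F8 fell by 1.16 on the log2 scale (SE 0.13), as its relative E2F7 did by 1.11 (SE 0.11). The activator E2F2 fell by 0.85 and E2F1 by 0.45, and TFDP1, a dimer partner of E2Fs, fell by 0.36. The activator E2F3 was not called (-0.11 ± 0.06). E2F1 read 8.92, 8.70, 8.94 and 8.73 in RB plus SMYD2 cells, against 9.35, 9.23, 9.29 and 9.23 in control cells. RBL1, which encodes p107, differed by -0.91 ± 0.09 on its brightest probe set, but only 1 of its 4 probe sets had that sign. The repressive E2F4 (0.05 ± 0.07) and RBL2, which encodes p130 (-0.02 ± 0.07), were not called.

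Origin licensing and helicase genes fell as a whole list, 22 of 22, with a median of -0.75, where 8.41% of all genes fell. MCM10, which activates the replicative helicase, read 7.96, 8.30, 8.33 and 8.26 in RB plus SMYD2 cells, against 8.89, 9.32, 9.74 and 9.77 in control cells. Its control arrays 4 and 5 were the highest, and its difference was -1.22 ± 0.10 (SE, adjusted p = 1.7e-05, limma). ORC1, a subunit of the origin recognition complex, fell by 1.07, CDT1, which loads the helicase, by 1, and its partner CDC6 by 0.94. The helicase subunits MCM2 and MCM5 fell by 0.67 and 0.72.

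At the replication fork and in chromatin assembly, 27 of 28 genes fell, with a median of -0.72. CLSPN, claspin, the mediator between stalled forks and CHEK1, read 6.95, 7.55, 7.34 and 7.26 in RB plus SMYD2 cells, against 7.99, 8.39, 8.42 and 8.43 in control cells. It fell by 1.04 (SE 0.08) with no overlap. WDHD1, a scaffold of the replisome, fell by 1.06, RFC3, a subunit of the clamp loader, by 0.995, and CHAF1A, a chaperone that deposits new histones, by 0.90. PCNA, the sliding clamp, fell by 0.67. POLD2, a subunit of DNA polymerase delta, was the gene that was not called (-0.04 ± 0.06).

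All 7 genes of deoxynucleotide supply fell, with a median of -0.78. RRM2, the regulated subunit of ribonucleotide reductase, read 11.21, 11.43, 11.12 and 11.10 in RB plus SMYD2 cells, against 11.87, 12.21, 12.40 and 12.42 in control cells. The groups did not overlap. RRM2 fell by 1.01 (SE 0.10), TK1, thymidine kinase, by 0.99 (SE 0.11), TYMS, thymidylate synthase, by 0.85 (SE 0.07) and RRM1 by 0.78 (SE 0.08).

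Among 18 cyclins and cell cycle kinases, 15 fell and 1 rose, with a median of -0.80. CCNA2, the cyclin of S and G2 phase, read 9.23, 9.58, 9.11 and 9.38 in RB plus SMYD2 cells, against 10.26, 10.43, 10.55 and 10.49 in control cells. All 4 RB plus SMYD2 arrays lay below the controls. CCNA2 fell by 1.11 (SE 0.09), and CDC25C, a phosphatase that activates CDK1, by 1.13 (SE 0.14). The mitotic cyclins CCNB1 and CCNB2 fell by 0.99 and 1.03, and CDK1 itself by 0.90. For CCNB2, 2 of its 3 probe sets had that sign. CCNE2 fell by 0.83 and CCNE1 by 0.37. CCNE1 lost its call without the block (adjusted p = 0.160, limma), and only 1 of its 2 probe sets had that sign. CCND1, the G1 cyclin that feeds CDK4 and CDK6, was the member that rose. It read 5.45, 5.94, 5.85 and 5.81 in RB plus SMYD2 cells, against 5.05, 5.54, 5.00 and 5.05 in control cells. Control array 3 lay above RB plus SMYD2 array 1, so the groups overlapped, and each array exceeded its same-numbered control (0.60 ± 0.10, adjusted p = 0.00136, limma).

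The inhibitors of cyclin-dependent kinases did not move as 1 group. Of 6 measured, 2 rose and 2 fell, with a median of -0.04. CDKN2B, the p15 inhibitor of CDK4 and CDK6, read 8.84, 9.11, 8.73 and 9.05 in RB plus SMYD2 cells, against 7.57, 8.12, 7.95 and 7.78 in control cells. It rose by 1.07 ± 0.09, with no overlap. CDKN1C, which encodes p57, rose by 0.54 ± 0.14, but its adjusted p of 0.0183 (limma) went up to 0.102 with 1 array left out, and its difference was 0.36 without array 4. CDKN2D, which encodes p19, fell by 0.53, and its call was lost without the block (adjusted p = 0.0536, limma). CDKN1B, which encodes p27, fell by 0.22, a call lost with any of the 8 arrays left out (adjusted p up to 0.120, limma). With the block, leaving out 1 array also takes its same-numbered partner out of the difference, so such omissions amount to 1 check per pair. CDKN1A, which encodes p21, read 9.24, 9.32, 8.99 and 8.94 in RB plus SMYD2 cells, against 9.37, 9.37, 8.87 and 9 in control cells. Those groups overlapped, and the difference was -0.03 ± 0.07.

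Transcription factors of the mitotic programme fell in 6 of 7 cases, with a median of -0.38. FOXM1, which drives genes of G2 and M phase, read 8.81, 9.16, 8.81 and 8.62 in RB plus SMYD2 cells, against 9.91, 9.99, 10.16 and 10.17 in control cells. No array of 1 group reached the other. FOXM1 fell by 1.21 (SE 0.10) and MYBL2, its partner on the MuvB core, by 0.87 (SE 0.11). The MuvB subunits LIN9 and LIN54 fell by 0.51 and 0.38. Both had dim signals, below the array medians. LIN9 averaged 4.95 in RB plus SMYD2 cells and 5.46 in control cells, and LIN54 averaged 4.52 and 4.91 in the same order. LIN54 lost its call when array 1, 4 or 5 of either group was left out, with a difference of -0.24 and an adjusted p of 0.210 (limma) without array 4.

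The genes of the centromere and kinetochore fell in all 29 measured cases, with a median of -0.96, and those of kinesins, spindle and cytokinesis in all 26, with a median of -1.06. NUF2, which binds SPC25 in the NDC80 complex, fell by 1.22 (SE 0.09). ASPM, a protein of the spindle poles, read 9.22, 9.76, 9.33 and 9.29 in RB plus SMYD2 cells, against 10.30, 10.64, 10.78 and 10.84 in control cells. RB plus SMYD2 array 3 was the highest of its group, and ASPM fell by 1.24 (SE 0.10). The kinesins KIF23 and KIF4A, which act in the central spindle, fell by 1.19 and 1.18.

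Mitotic kinases, checkpoint and anaphase genes fell in 23 of 25 cases, with a median of -0.998. AURKA, the kinase of spindle poles, read 9.97, 10.32, 9.78 and 9.88 in RB plus SMYD2 cells, against 11.09, 11.22, 11.22 and 11.21 in control cells. The control arrays lay close together, and AURKA fell by 1.20 (SE 0.08), with the same sign in 2 of its 3 probe sets. NEK2, a centrosome kinase, fell by 1.20, and the checkpoint kinases BUB1 and TTK by 1.18 and 1.17. INCENP (-0.27 ± 0.11) and FZR1 (-0.02 ± 0.09), which activates the anaphase-promoting complex in G1, were not called. All 9 condensin and topoisomerase genes fell, with a median of -0.98, among them TOP2A (-1.10 ± 0.09) and NCAPG (-1.08 ± 0.08). MKI67, the proliferation marker Ki-67, fell by 1.05 (SE 0.07).

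Repair genes fell too, though less evenly. Of 22 genes of homologous recombination and the Fanconi pathway, 18 fell and none rose, with a median of -0.74. FANCI, which pairs with FANCD2 at DNA crosslinks, read 9.06, 9.14, 8.82 and 8.96 in RB plus SMYD2 cells, against 10.21, 10.08, 10.20 and 10.18 in control cells. The 4 control arrays lay close together, well above the others, and FANCI fell by 1.17 (SE 0.08). MND1, known from meiotic recombination, fell by 1.15, RAD51AP1, a recombination factor, by 1.02, and the BLM helicase by 0.97. Among 9 mismatch repair and checkpoint kinase genes 6 fell, with a median of -0.40. CHEK1 fell by 0.85, WEE1, which inhibits CDK1, by 0.68, and CHEK2 by 0.57. MSH6 fell by 0.43, with that sign in 2 of its 4 probe sets. The kinases ATM and ATR, at 0.05 and 0.10, were not called.

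Over the 12 lists named from E2F factors to repair, without the kinase inhibitors, 194 of 214 measured genes fell, 1 rose and 19 were not called. Their median was -0.85, where the median of all genes was 0.02. These 194 are a minority of the 1663 genes that fell, and 1469 lay outside the lists. The members were chosen as known cell cycle genes and share their regulation, so the count describes 1 programme rather than independent cases.

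Genes of chromatin repressors fell in 13 of 14 cases, with a median of -0.65. HELLS, a remodeller needed for DNA methylation, read 9.09, 9.61, 8.93 and 8.68 in RB plus SMYD2 cells, against 10.60, 10.03, 9.92 and 9.82 in control cells. Control array 1 was the highest, the groups did not overlap, and HELLS fell by 1.02 (SE 0.13). UHRF1, which brings DNMT1 to replicated DNA, and EZH2, the methyltransferase of Polycomb complex PRC2, each fell by 0.86. LMNB1, the lamin B1 gene, fell by 0.80. DNMT3A was the gene not called (-0.02 ± 0.09).

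Histone genes went apart by class. Replication-dependent histone genes, whose transcripts normally end in a stem-loop without a poly(A) tail, rose in 11 of 30 cases and fell in 2, with a median of 0.21. H2BC4 read 9.05, 8.73, 8.30 and 8.39 in RB plus SMYD2 cells, against 7.06, 7.49, 6.63 and 6.44 in control cells, a difference of 1.72 ± 0.12. H2BC21 read 10.96, 10.56, 10.75 and 10.98 in RB plus SMYD2 cells, against 9.17, 9.35, 8.94 and 9.06 in control cells, a difference of 1.68 ± 0.10. Neither gene's groups overlapped. H1-2, a linker histone, read 12.52, 12.43, 12.18 and 12.36 in RB plus SMYD2 cells, against 11.27, 11.01, 10.59 and 10.45 in control cells, a difference of 1.54 ± 0.09. H2AC6 rose by 1.18 and H2AC8 by 0.89. The 2 members that fell, H2AC16 (-0.56) and H2BC11 (-0.34), were named after their values were seen and had dim signals, at 5.12 in RB plus SMYD2 cells and 5.67 in control cells for H2AC16. These genes form families of near-identical sequence, so their probe sets may share targets. Signals of stem-loop and polyadenylated histone transcripts were not separated on these arrays.

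**Figure D4:**
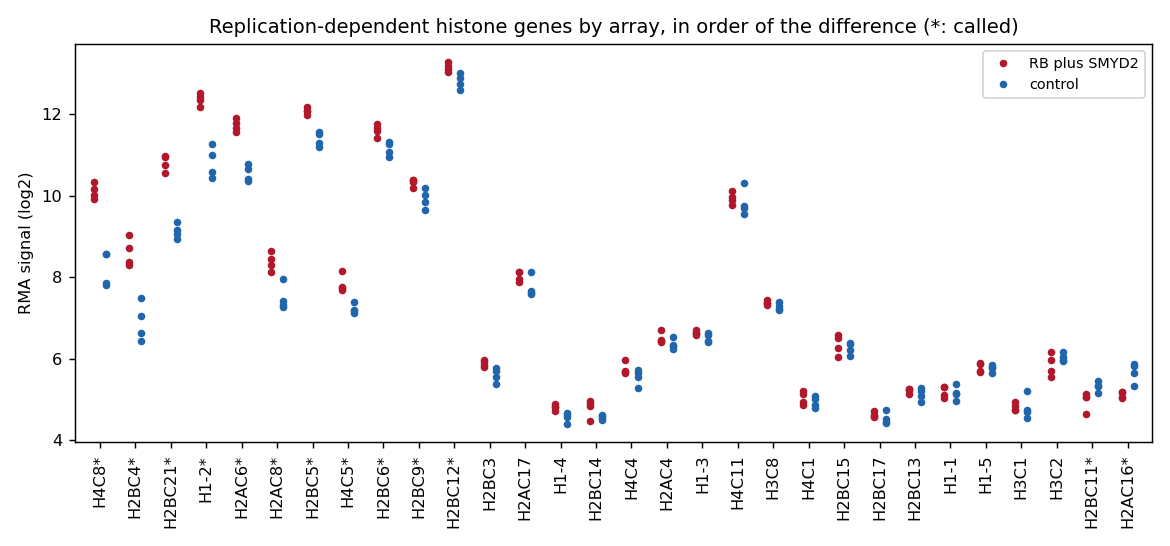
RMA signal (log2) of 30 replication-dependent histone genes on each RB plus SMYD2 array (red) and each control array (blue), ordered by the difference, with asterisks for called genes. The leading genes stand clear of the control arrays, as H4C8 does with 9.92 to 10.35 against 7.81 to 8.58, while most of the 17 genes that were not called overlap.

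The histone variants went the other way in 5 of 8 cases. H2AX, the variant phosphorylated at DNA breaks, read 10.81, 10.90, 10.82 and 10.89 in RB plus SMYD2 cells, against 11.47, 11.60, 11.66 and 11.65 in control cells. Both groups were tight and did not overlap, and H2AX fell by 0.74 (SE 0.06), with that sign in 3 of its 4 probe sets. H1-10 fell by 0.51, H2AZ2 by 0.49 and H2AZ1 by 0.33. H2AJ was the member that rose, by 0.28, and the median of the list was -0.28.

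Osteoblast genes changed in both directions. Of 22 measured, 8 rose and 2 fell, with a median of 0.14, where 7.84% of all genes rose. Beside OMD, SPARC, the collagen-binding protein osteonectin, read 11.87, 11.88, 11.66 and 11.80 in RB plus SMYD2 cells, against 11.19, 11.44, 10.70 and 10.72 in control cells. It rose by 0.79 ± 0.09, with no overlap. The alkaline phosphatase gene ALPL rose by 0.39, with groups that overlapped. SPP1, osteopontin, rose by 0.41 and BMP2 by 0.55. RUNX2 differed by 0.15 ± 0.07 and was not called (adjusted p = 0.171, limma). TNFSF11, the osteoclast-promoting ligand RANKL, differed by 0.82 ± 0.19. Its call was lost without array 5 (0.59, adjusted p = 0.0772, limma).

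The 2 osteoblast-list genes that fell encode inhibitors of Wnt signalling, and their controls were uneven. DKK1 read 10.11, 10.38, 11.19 and 11.30 in RB plus SMYD2 cells, against 10.77, 10.95, 12.67 and 12.62 in control cells. Arrays 4 and 5 were higher in both groups, each array lay below its same-numbered control, and the difference was -1.01 ± 0.13 (adjusted p = 0.000253, limma; 0.215 without the block). SOST, sclerostin, read 5.47, 5.26, 6.03 and 6.10 in RB plus SMYD2 cells, against 5.51, 5.30, 7.67 and 7.65 in control cells. Pairs 1 and 3 hardly differed, and the mean difference of -0.82 ± 0.24 came from pairs 4 and 5. Its adjusted p of 0.0397 (limma) was 0.404 without the block and reached 0.212 with 1 array left out, and its difference was -0.54 without array 4.

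Collagen and matrix genes rose in 10 of 24 cases and fell in none, with a median of 0.26. COL6A2 read 11.71, 11.80, 12.25 and 12.18 in RB plus SMYD2 cells, against 10.72, 11.56, 10.51 and 10.41 in control cells. The groups did not overlap, with control array 3 the nearest, and COL6A2 rose by 1.18 ± 0.19. COL6A1, which joins it in collagen VI, rose by 0.95 ± 0.11 and COL5A1, of collagen V, by 0.66 ± 0.10. COL1A2, of collagen I, read 12.46, 11.87, 10.97 and 11 in RB plus SMYD2 cells, against 11.95, 11.23, 10.07 and 10.12 in control cells. These ranges overlapped, each array lay above its same-numbered control, and the difference of 0.73 ± 0.07 (adjusted p = 4.47e-05, limma) was not called without the block (adjusted p = 0.378).

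Lysosome and autophagy genes rose in 12 of 25 cases and fell in none, with a median of 0.24. WIPI1, a protein of early autophagosomes, read 9.15, 9.07, 9.35 and 9.60 in RB plus SMYD2 cells, against 8.60, 8.45, 8.43 and 8.47 in control cells. It rose by 0.80 ± 0.10 with no overlap. The protease gene CTSB rose by 0.67, GAA, the lysosomal glucosidase, by 0.63 and LAMP2, a lysosomal membrane protein, by 0.62.

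Genes induced by hypoxia rose in 6 of 20 cases and fell in 2, with a median of 0.06. Over all genes 7.84% rose and 8.41% fell. STC2, stanniocalcin, rose by 0.87 ± 0.09 and NDRG1 by 0.67 ± 0.06. MXI1, an antagonist of MYC, rose by 0.54. DDIT4, an inhibitor of mTORC1, differed by 0.53 ± 0.13 and lost its call without array 5 (0.41, adjusted p = 0.0993, limma). The list of the unfolded protein and amino acid response held 19 measured genes, of which 4 rose and 2 fell. HERPUD1 rose by 0.59, with that sign in 1 of its 2 probe sets, and PHGDH, the first enzyme of serine synthesis, fell by 0.56. ATF3 (0.34) and DNAJB9 (0.31) lost their calls when array 4 or 5 of either group was left out, with adjusted p-values up to 0.0985 and 0.0589 (limma).

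The remaining lists had medians between -0.07 and 0.06, near the median of all genes. Their counts stand beside the 7.84% of all genes that rose and the 8.41% that fell. Of 11 apoptosis genes linked to E2F, 2 fell, APAF1 by 0.46 and BCL2 by 0.31. APAF1 had that sign in 2 of its 3 probe sets and BCL2 in 2 of its 4. Both calls were lost when all probe sets of a gene were averaged. The BCL2 call was lost when array 1, 4 or 5 of either group was left out (adjusted p up to 0.163, limma). Of 16 genes for secreted and chromatin factors of senescence, 2 fell and none rose, and HMGA1 fell by 0.46. IGFBP5 read 10, 9.43, 10.36 and 10.33 in RB plus SMYD2 cells, against 10.32, 9.33, 8.49 and 8.55 in control cells. Only arrays 4 and 5 differed much, and its difference of 0.86 ± 0.29 was not called (adjusted p = 0.0724, limma).

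Interferon-stimulated genes gave 2 higher and 2 lower calls among 23, near the shares over all genes (7.84% higher, 8.41% lower). IRF9 was at 0.35 and OAS3 at -0.48. Only 1 of the 2 OAS3 probe sets had that sign. Among 15 TGF-beta targets 2 rose and 3 fell. ID1, an inhibitor of differentiation factors, read 11.06, 10.94, 10.87 and 11.32 in RB plus SMYD2 cells, against 11.29, 11.04, 12.42 and 12.19 in control cells. The controls of pairs 4 and 5 stood high, and the difference of -0.69 ± 0.18 was -0.40 without array 4 and lost its call without array 5 (adjusted p = 0.107, limma). Ribosome biogenesis genes fell in 4 of 14 cases, led by FBL, fibrillarin, by 0.61 (SE 0.05). Cholesterol synthesis and oxidative phosphorylation each gave 1 higher and 1 lower call, among 11 and 16 genes. LSS, lanosterol synthase, rose by 0.51 and FDPS, farnesyl diphosphate synthase, fell by 0.33, the second call lost without the block (adjusted p = 0.0683, limma). IFI44 fell by 0.33 and kept its call with each array left out in turn (adjusted p up to 0.0335, limma). SMAD7 (-0.31) and BAMBI (0.31), both of the TGF-beta list, were also called and were not recomputed under other settings. The following calls were small and lost with at least 1 array left out: HMGA2 (-0.30), IFI6 (0.32), TGFBI (0.48), ID2 (-0.39), UTP20 (-0.29), NOP58 (-0.21), NCL (-0.19), NDUFS1 (-0.22) and SDHC (0.18), with adjusted p-values between 0.00804 and 0.0435 (limma) over all arrays and up to 0.211 with 1 left out. In the SMYD family and its relatives, SMYD4 fell by 0.36, a call lost without the block (adjusted p = 0.0838, limma) and without array 5 (up to 0.0675), and the other 6 members were not called.

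The size of the change varied with the replicate number. RB1 exceeded its same-numbered control most in pairs 4 and 5, and the median of the 12 cell cycle and repair lists was -0.74 in pair 1, -0.63 in pair 3, -1.03 in pair 4 and -0.99 in pair 5. Kinesin, spindle and cytokinesis genes had medians of -0.97, -0.82, -1.23 and -1.22 in the same order, and replication-dependent histones 0.24, 0.34, 0.21 and 0.31. The direction was the same in all pairs for these lists. With 4 pairs no correlation is given, and the part of RB1 level in the size was not tested.

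**Figure D5:**
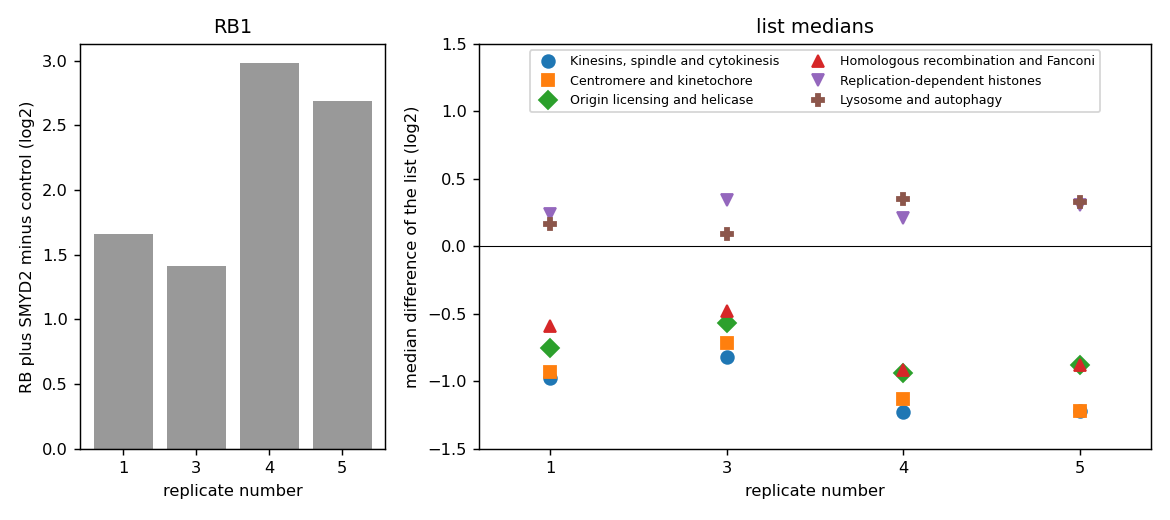
Difference RB plus SMYD2 minus control (log2) in each same-numbered pair of arrays, for RB1 (left, bars from 0) and for the medians of 6 gene lists (right). RB1 and the falling lists differed most in pairs 4 and 5, where kinesin, spindle and cytokinesis genes had medians of -1.23 and -1.22, and the histone and lysosome lists lay above 0 in every pair.

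Beside the same control arrays, RB alone gave 1546 calls (7.82%), with 795 higher (4.02%) and 751 lower (3.80%). SMYD2 alone gave 0 calls by limma (1282 genes at an unadjusted p under 0.05, smallest adjusted p = 0.705). The ACTB difference used above as a sign of RNA quality was 3.53 on SMYD2 array 1, higher than the 2.46 of control array 1. On the other SMYD2 arrays it lay between 0.60 and 1.58. Whether this unevenness hid an effect of SMYD2 alone was not tested. The comparisons of RB alone and SMYD2 alone share their control arrays with the one above, so their values are only set side by side. The median of the 12 lists against control was -0.85 for RB plus SMYD2, -0.56 for RB and -0.06 for SMYD2. MKI67 averaged 9.02 ± 0.14 in RB plus SMYD2 cells, 9.30 ± 0.18 in RB cells, 9.93 ± 0.32 in SMYD2 cells and 10.07 ± 0.18 in control cells (SD, n = 4 each). In the same order H4C8 averaged 10.11, 9.62, 8.28 and 8.21, and CRYBA2 averaged 7.06, 6.95, 5.51 and 5.19.

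Tested directly, RB plus SMYD2 differed from RB alone in 133 genes (0.673%), of which 38 were higher (0.192%) and 95 lower (0.480%). Of the 95 lower genes, 56 belonged to the 12 cell cycle and repair lists, and of the 38 higher genes 0 did. The median difference of those lists between RB plus SMYD2 and RB was -0.27. RB1 itself was higher by 0.97 ± 0.17 (adjusted p = 0.0302, limma), at 8.67 ± 0.90 in RB plus SMYD2 cells and 7.70 ± 0.34 in RB cells, so SMYD2 and the level of RB1 cannot be told apart in this contrast. CFD, KANK4, SCUBE3, COL6A1 and HMMR had the smallest p. CFD averaged 11.32 ± 0.58 in RB plus SMYD2 cells and 10.80 ± 0.63 in RB cells, a difference of 0.51 ± 0.05 (adjusted p = 0.00474, limma). HMMR, a spindle protein, averaged 10.25 ± 0.17 in RB plus SMYD2 cells and 10.70 ± 0.12 in RB cells, a difference of -0.44 ± 0.05 (adjusted p = 0.0053, limma). H4C8 differed by 0.50 ± 0.08 (adjusted p = 0.0268, limma). MKI67 differed by -0.28 ± 0.08 and was not called (adjusted p = 0.206, limma). CRYBA2 differed by 0.11 ± 0.09 (adjusted p = 0.725) and E2F1 by -0.01 ± 0.08 (adjusted p = 0.984, limma). These calls rested on the pairing: there were 0 without the block, and 0 when array 1 or array 4 of either group was left out. Without array 3 of RB plus SMYD2 or of RB there were 197 and 199, and without array 5 there were 283 and 286.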

How the data were processed

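SAOS cells were measured on 16 arrays, of which the 8 labelled RB plus SMYD2 or control enter the main comparison. The deposited values are log2 signals that the authors made with RMA, per the submitters' processing notes; its version, and whether all arrays were normalized together, are not given in the sources used here. Of 54675 probe sets, 41097 carried 1 gene symbol in the platform annotation, 1801 carried several and 11777 none. Each of 19775 genes was read from 1 probe set, that of the highest mean over the 16 arrays. RMA gives no detection call, and precision is limited by the 4 arrays per group.

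Differences were tested by limma 3.58.1 (R 4.3.3; lmFit with the replicate number as a block, eBayes with a trend, two-sided, Benjamini-Hochberg over all genes, threshold 0.05). RB plus SMYD2 against RB, RB against control and SMYD2 against control were fitted the same way. The block by replicate number was part of the choice of the comparison. As a check, deviations of same-numbered arrays from their group means were correlated. The values were 0.50, 0.40, 0.22 and 0.27 for RB plus SMYD2 with control, and 0.49, 0.53, 0.42 and 0.15 for RB plus SMYD2 with RB. RB plus SMYD2 array 4 correlated slightly more with a control array of another number (0.26) than with its own, and for array 5 the highest such value was 0.21. For arrays 4 and 5 the check thus hardly set the own number apart. Values for unequal numbers were not computed for RB plus SMYD2 with RB. The fit was tested on simulated data first.

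The comparison, the 30 gene lists (1 of them not reported here) and the marker lists were chosen with earlier results of these data known. Genes named are RB1, SMYD2, L3MBTL1, a fixed set of cell cycle genes, the 15 largest increases and decreases whose arrays do not overlap, the 4 members of each list with the largest absolute difference, and the 5 smallest p against RB. Members outside that rule (among them ALPL, SPP1, BMP2, SPARC, RUNX2, H2AC6, E2F4, TFDP1, SMAD7, BAMBI and the list members reported as not called) were named after their values were seen. Promoter sequences came from RefSeq (GRCh38.p14). Figures were drawn with matplotlib.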

Additional observations from a re-analysis of the deposited data

Results flagged for a closer look

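Within each group of 4 arrays, 22 of 356 sets of values held an array far from the other three, by a criterion that chance meets in about 1 in 20 sets. Control array 1 was the one apart for CDK1 (11.19, others 11.82 to 11.90), AURKA (11.09), CLSPN (7.99), RAD51AP1 (10.34), MSH6 (11.60), NDRG1 (10.57) and H1-10 (11.53), and for the mean level of the CDK inhibitors (9.67). Control array 3 was apart for CCND1 (5.54, others 5.00 to 5.05) and CDKN1B (10.39). RB plus SMYD2 array 3 was apart for MND1 (8.28), BLM (7.69), TNFSF11 (5.29, others 6.08 to 6.13) and DDIT4 (12.15). The same array was apart in the mean levels of kinesin, spindle and cytokinesis genes (9.54, others 9.21 to 9.26), chromatin repressors (9.46), osteoblast genes (8.35) and collagens and matrix (10.40). RB plus SMYD2 array 1 was apart for NPTX2 (7.64) and CDKN2D (7.68), and array 5 for E2F2 (7.99) and CASP8 (9.02).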

How the results depend on the processing

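Under the settings tried, no called gene of the naming rule changed its direction; the differences of some that were not called, such as CDKN1A, CASP8 and IGFBP5, changed sign, and genes named outside the rule were not recomputed. Without the replicate block 1699 genes were called (741 higher, 958 lower), and in a fit of all 16 arrays with no replicate block 1424 (594 higher, 830 lower). With 1 array or same-numbered pair left out the calls ranged from 1738 to 3005 (736 to 1493 higher, 1002 to 1512 lower), lowest without array 5. Pairs 1 and 3 alone gave 1764 calls (792 higher, 972 lower), and pairs 4 and 5 alone gave 4769 (2568 higher, 2201 lower), more than the 3213 with all 8 arrays. The counts of 194 cell cycle and repair genes that fell and of 11 histone genes that rose stayed within 1.5 times under every setting. RB plus SMYD2 against RB gave 0 calls without the replicate block (1107 genes at an unadjusted p under 0.05, limma) and from 0 to 286 with 1 array left out. The causes were not tested. Over the named genes, 102 recomputed results with 1 array left out lost their call, 8 gained one and 1058 kept their side of the threshold. With the block, leaving out either array of a same-numbered pair gives nearly the same fit as leaving out the pair. These numbers therefore count each such check for both arrays of a pair and are not independent. Under the other settings they were 177, 28 and 2262.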

Other observations

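Probe sets that name no single gene were tested apart. Of 11777 probe sets without a symbol, 485 (4.12%) were called between RB plus SMYD2 and control, 174 higher and 311 lower. Of 1801 with several symbols 213 (11.8%) were called, 96 higher and 117 lower. Among the 41097 probe sets with 1 symbol the share called was 10.9%. The differences between these shares were not tested.

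KANK4 and SCUBE3 were among the genes with the smallest p between RB plus SMYD2 and RB. Against control, SCUBE3, a secreted glycoprotein, read 10.86, 9.82, 11.16 and 10.97 in RB plus SMYD2 cells and 10.93, 9.44, 9.46 and 9.86 in control cells. Its difference of 0.78 ± 0.21 (adjusted p = 0.0242, limma) was 0.47 without array 4, and its call was lost without array 4 or 5. KANK4 read 10.58, 10.45, 10.39 and 10.25 in RB plus SMYD2 cells and 10.40, 10, 8.51 and 8.87 in control cells. Its difference of 0.97 ± 0.21 (adjusted p = 0.00808, limma) lost its call without array 5 (adjusted p = 0.0628).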
